A study of Ovis aries with 6 samples.

Results

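The ZNF genes of the sheep skin were described here, selected on the symbol, ZNF followed by a number and nothing else, and on the measured total count, which had to reach 10 in 3 or more of the 6 sheep. Of 218 such rows, 211 passed the count rule, out of 28394 genes in the deposited tables. Skin RNA had been sequenced from 3 Super Merino (SM) sheep, a fine wool breed of Merino ancestry, and 3 Small Tail Han (STH) sheep, a coarse wool breed. The labels give 1 skin sample of each sheep at 9 months, whereas the methods of the study give a younger age, and they describe ewes of both breeds kept on 1 farm with the same feed and sampled when the wool follicles were expected to be growing. The strain label is the only difference between the groups, no allele or agent is named, and each library is 1 animal, SM 128, 30034 and 30126 and STH XW3, XW5 and XW8.

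Most ZNF genes encode zinc finger proteins of the C2H2 kind, in which a zinc ion held by cysteine and histidine residues folds a short finger that reads bases of DNA. Many carry a KRAB domain that binds TRIM28, a scaffold that brings the histone methyltransferase SETDB1 and heterochromatin protein to the bound site and silences it, transposable elements included. Other ZNF proteins do not have this role and act in chromatin insulation, RNA processing, ribosome function or cell division. In skin ZNF750 is known as a driver of terminal keratinocyte differentiation.

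No ZNF gene passed the breed comparison by edgeR's quasi-likelihood test after adjustment over all genes, and 1, ZNF175, passed by DESeq2 and by the likelihood ratio test. The study, which used edgeR, listed ZNF175, ZNF260 and ZNF638 as more highly expressed in STH skin. It also listed ZNF280D, whose symbol ends in a letter and which is not counted here. The quasi-likelihood test called none of these genes, so its result differs from the published calls. DESeq2 and the likelihood ratio test called ZNF175 and ZNF280D, but not ZNF260 or ZNF638. Among the ZNF genes past an unadjusted threshold more were lower than higher in SM skin, and the lower ones had long exons. At an unadjusted p under 0.05 in the quasi-likelihood test of edgeR, 32 members (15.2%) were lower in SM sheep, against a background of 10.8% of the 15320 genes tested, and 10 members (4.74%) were higher, against 7.21%. The excess of lower members did not hold with every sheep left out, as given below. None of the 211 members reached an adjusted p under 0.05 together with a difference of more than 1.5-fold, and the background was 0.0% in each direction. The limma-voom test (background 0.0% in each direction) and the newer quasi-dispersion estimate of edgeR (background 0.0131% lower and 0.0% higher) called none. DESeq2 called 1 member, ZNF175, beside backgrounds of 1.85% lower and 1.02% higher, and the likelihood ratio test called the same gene, beside 1.43% lower and 0.868% higher. The smallest adjusted p of a member was 0.159, that of ZNF175, and the members past the unadjusted threshold had adjusted p values of up to 0.277. The median log2 fold change (SM over STH) of the members was -0.11, beside 0.02 over all genes tested. The log2 fold change was below 0 in 121 members (57.3%), beside 48.6% of all genes. Every STH sheep was above every SM sheep in 26 members (12.3%, background 13.3%), and the reverse held in 23 members (10.9%, background 12.3%). The counts of members without overlap were thus near the background in both directions. The lowest 10% of the members lay below a log2 fold change of -0.96, beside -0.70 for all genes, while the highest 10% began at 0.37, beside 0.46.

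The libraries differed in measures other than breed. Total counts ran from 28870583 to 44645091, so that 3 counts corresponded to between 0.066 and 0.099 CPM, the count scaled to library size by the TMM method. The share of counted fragments that fell outside the counted exons, which holds intronic, intergenic and mitochondrial fragments and those of genes listed with an RPKM but a count of 0, was 34.5% in SM 128, 29.0% in SM 30034 and 22.7% in SM 30126. It was 29.9% in STH XW3, 33.1% in STH XW5 and 33.4% in STH XW8. SM 128 was thus the highest and SM 30126 the lowest of the 6 sheep, and the breed means of 28.8% ± 5.92 and 32.1% ± 1.93 (SD, n = 3 each) gave an exact two-sided permutation p of 0.6, where 0.1 is the smallest that 3 against 3 allows. Without SM 128, 27 members were called lower in SM skin (background 6.29%) and 1, ZNF771, was called higher (background 1.3%). The unadjusted counts were then 62 lower (background 17.5%) and 15 higher (background 12.7%). Other single sheep moved these counts in the opposite direction, to 10 lower and 2 higher without SM 30034 (background 6.07% and 4.57%), 15 and 6 without SM 30126 (6.45% and 4.83%), 6 and 3 without STH XW5 (4.31% and 3.08%) and 21 and 6 without STH XW8 (7.68% and 4.84%). Without STH XW3 they were 36 and 7 (9.16% and 5.94%). Taken as a share of the members, the lower ones thus fell below the background without SM 30034 and without STH XW5. They stayed above it without SM 128, STH XW3 or STH XW8, and by little without SM 30126. The higher ones were below the background in each case. The excess of lower members over all genes therefore did not hold with every sheep left out. The median log2 fold change of the members was -0.05 without SM 30126.

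The lower members with the smallest p were ZNF175, ZNF568, ZNF382, ZNF184, ZNF800 and ZNF654. ZNF175 (gene 101123658, chr14:56371604-56378089 of Oar_v4.0, plus strand), known from macrophages, where it restrains HIV, stood at 13, 8.06 and 6.57 CPM in SM 128, 30034 and 30126 and at 23.3, 32.5 and 23.4 CPM in STH XW3, XW5 and XW8. All 3 STH sheep were above all SM sheep, and the lowest STH sheep was well above SM 128, the highest of its breed. The means were 9.22 ± 3.38 and 26.4 ± 5.29 CPM (SD, n = 3 each), a log2 fold change of -1.52 (SE 0.27, adjusted p = 0.159 by edgeR's quasi-likelihood test). Under DESeq2 the adjusted p of ZNF175 was 8.4e-05 and under edgeR's likelihood ratio test it was 0.000179. ZNF175 was the only member called by either test. Without SM 128 the quasi-likelihood test called it as well, at an adjusted p of 0.0168.

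ZNF568, a KRAB zinc finger protein known from the mouse for silencing a placental Igf2 transcript, stood at 10.2, 7.13 and 4.33 CPM in SM and 11, 16.7 and 17.7 CPM in STH sheep in the same order. ZNF382, a KRAB repressor, stood at 2.25, 3.43 and 2.19 CPM in SM and 5.58, 6.14 and 4.0 CPM in STH sheep. ZNF184 stood at 18.7, 14.2 and 8.36 CPM in SM and 19.9, 27.0 and 42.1 CPM in STH sheep. The breeds did not overlap in any of these genes, but SM 128 came within a short distance of STH XW3 in ZNF568 and ZNF184, and only in ZNF382 was SM 30034 the highest SM sheep. Their log2 fold changes were -1.07 (SE 0.32), -0.995 (SE 0.30) and -1.11 (SE 0.34), each with an adjusted p of 0.247. ZNF800 had the smallest difference of the group, with 42.6, 33.0 and 32.3 CPM in SM and 51.7, 51.2 and 47.9 CPM in STH sheep (log2 fold change -0.48, SE 0.15). ZNF654 stood at 17.0, 8.24 and 6.42 CPM in SM and 20.8, 27.4 and 18.7 CPM in STH sheep (log2 fold change -1.09, SE 0.35). In both genes the breeds did not overlap and SM 128 lay closest to the STH range.

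The higher members with the smallest p were ZNF18, ZNF329, ZNF70, ZNF771, ZNF395 and ZNF205. ZNF18 (gene 101114536, chr11:30167640-30189665, minus strand) stood at 10.6, 8.92 and 10.8 CPM in SM and 6.10, 6.40 and 6.88 CPM in STH sheep, which gave a log2 fold change of 0.65 (SE 0.19, adjusted p = 0.247 by edgeR's quasi-likelihood test). ZNF329 stood at 25.8, 32.1 and 31.6 CPM in SM and 21.1, 19.8 and 23.0 CPM in STH sheep (log2 fold change 0.49, SE 0.15). ZNF70 stood at 8.36, 8.41 and 9.83 CPM in SM and 6.55, 5.83 and 5.30 CPM in STH sheep (log2 fold change 0.59, SE 0.20). In these genes the SM sheep lay close together and above every STH sheep, and the SM sheep nearest to the STH range was 30034 in ZNF18 and 128 in ZNF329 and ZNF70. ZNF771 overlapped, with SM 128 at 13.5 CPM below STH XW3 at 13.9 CPM, while SM 30034 and 30126 stood at 18.6 and 22.9 CPM and STH XW5 and XW8 at 10.4 and 11.7 CPM (log2 fold change 0.61, SE 0.23). ZNF395 ranged from 15.4 to 17.2 CPM in SM and from 10.3 to 13.9 CPM in STH sheep, and ZNF205 from 45.8 to 54.8 and from 33.4 to 43.6 CPM, with log2 fold changes of 0.45 (SE 0.17) and 0.40 (SE 0.16). Of the 10 members higher at an unadjusted p under 0.05, 9 did not overlap, and SM 30126 was the highest of the 6 sheep in 8. Over all genes tested the corresponding shares were 12.3% with SM above and 33.4%. The 10 were picked by p and direction, which favours both counts. Their log2 fold changes ran from 0.37 to 0.95.

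**Figure D1:**
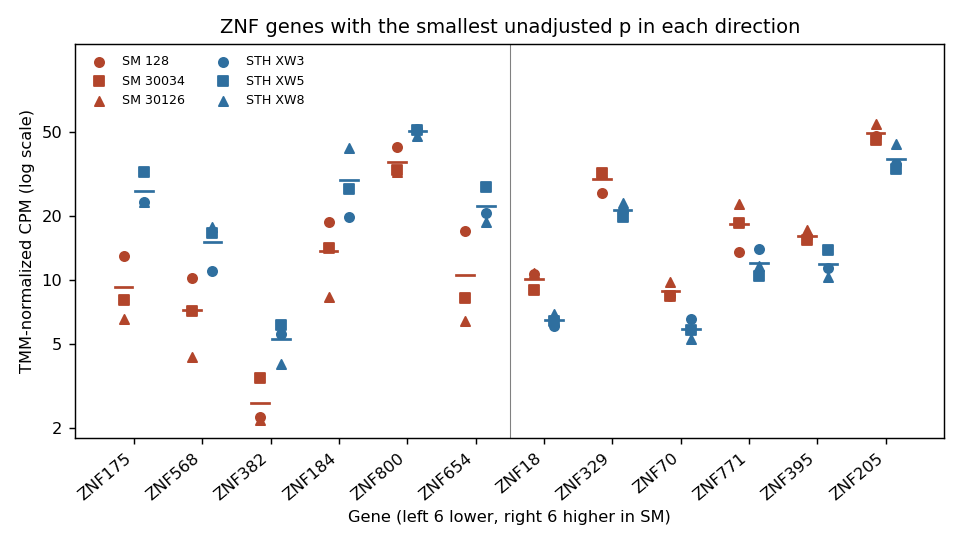
TMM-normalized CPM on a log scale (y axis) of the 6 ZNF genes with the smallest unadjusted p in each direction (x axis), 1 point per sheep and a line at each breed's mean. The SM points lie below the STH points in the 6 genes on the left, with SM 128 the highest SM point in 5 of them, and above them in 5 of the 6 genes on the right, where ZNF771 overlaps.

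The 32 members lower in SM were picked by p and direction, so their fold and lack of overlap follow in part from that choice. Their median log2 fold change was -1.0. In 21 of them the breeds did not overlap, beside 13.3% of all genes with STH above. SM 128 was the highest SM sheep in 28 of the 32 and reached or passed the lowest STH sheep in 11. SM 30126 was the lowest of all 6 sheep in 29, and STH XW5 the highest in 26. Over all genes tested, which were not picked in this way, the shares were 31.5% and 23.3%. SM 128 thus lay nearest to the STH sheep in most of the 32, and without it their median log2 fold change was -1.38. The largest difference was that of ZNF684, at 0.727, 0.421 and 0.153 CPM in SM and 1.23, 1.26 and 1.26 CPM in STH sheep (log2 fold change -1.54, SE 0.58), and it rests on few counts. ZNF674 on the X chromosome followed ZNF175, at 0.529, 0.708 and 1.32 CPM in SM and 2.08, 3.27 and 1.56 CPM in STH sheep (log2 fold change -1.42, SE 0.48), and there SM 30126 was the highest SM sheep. ZNF684 and ZNF674 were named after their values had been seen.

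The level of the ZNF genes in a sheep moved with its share of fragments outside exons. With each gene set to its own mean over the 6 sheep, the median member stood at -0.17 on the log2 CPM scale in SM 30126, which had the lowest share, and at -0.06 in SM 30034. It stood at 0.02 in STH XW3, 0.12 in STH XW5, 0.07 in STH XW8 and 0.12 in SM 128, in rising order of the share, with STH XW5 and XW8 out of step. The corresponding medians over all genes tested lay between 0.01 and 0.02 in all 6 sheep. The number of members above their own mean was 76 in SM 30126, 87 in SM 30034, 115 in STH XW3, 130 in STH XW5, 131 in STH XW8 and 152 in SM 128, and it followed the order of the share without exception. SM 128 was thus on the side of the STH sheep, apart from the other SM sheep, and the part of the share in the breed difference was not tested beyond the covariate fits below.

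The order within each breed was counted gene by gene. In SM sheep 100 members (47.4%) ran from 128 through 30034 down to 30126, as the share did, beside 27.7% of all genes, and 37 (17.5%) ran the opposite way, beside 27.9%. SM 128 exceeded SM 30126 more than 2-fold in 55 members (26.1%), beside 12.4% of all genes, and SM 30126 exceeded SM 128 by as much in 3 members (1.42%), beside 3.36% of all genes. In STH sheep, whose shares differ less, XW5 and XW8 both lay above XW3 in 97 members (46.0%), beside 34.7% of all genes, and both below it in 48 (22.7%), beside 34.4%. The order of XW5 and XW8 did not follow the share, since XW8 had the higher share and XW5 was the highest of the 6 sheep in 81 members, beside 28 for XW8. This holds for the whole share outside exons, which is more than intronic fragments, and the sheep were not ordered by the intronic share alone. Summed over the members, the level was 5076, 4359 and 4184 CPM in SM 128, 30034 and 30126 and 4879, 5650 and 5108 CPM in STH XW3, XW5 and XW8, so that SM 128 lay within the STH range.

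**Figure D2:**
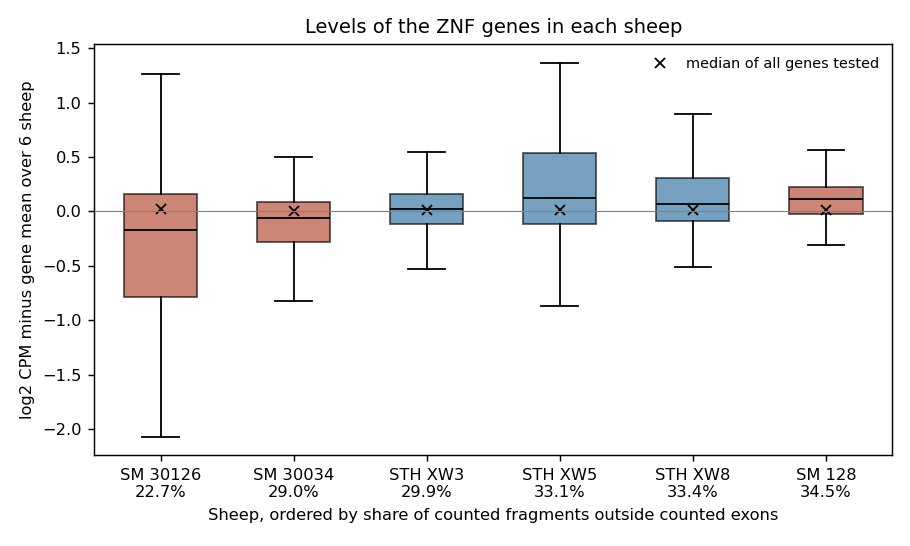
Deviation of the 211 ZNF genes from their own mean over the 6 sheep on the log2 CPM scale (y axis), with the sheep on the x axis ordered by the share of counted fragments outside the counted exons, printed under each name. Boxes span the quartiles with a line at the median and whiskers to 1.5 times their height, and crosses mark the median of all genes tested, which stays near 0 while the boxes move from -0.17 in SM 30126 to 0.12 in SM 128.

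With the share outside exons added to the model as a covariate, the members lower at an unadjusted p under 0.05 numbered 33 (background 10.5%) and those higher 9 (background 5.6%), and none passed both thresholds (background 0.0% in each direction). The median log2 fold change of the members was then -0.05, beside -0.01 for all genes. Of the 32 lower members, all 32 stayed below 0 and 29 stayed at an unadjusted p under 0.05, with a median of -0.67 in place of -1.0. With the intronic share of the study's mapping statistics in its place, 28 of the 32 stayed at that threshold with a median of -0.64, and the members numbered 32 lower (background 10.1%) and 10 higher (background 5.42%). ZNF175 had a log2 fold change of -1.30 and ZNF18 of 0.65 with the share outside exons in the model. A fit of 6 sheep with breed and share leaves few degrees of freedom, and such a fit describes the share and the breed together and cannot tell apart what moves with both.

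The spread between sheep of 1 breed was about that of other genes. The SD of log2 CPM was 0.30 for SM and 0.21 for STH sheep in the median member, beside 0.28 and 0.20 over all genes, and it was larger in SM than in STH sheep in 139 members (65.9%, beside 65.6% of all genes). Pooled within breeds it ran from 0.046 to 1.45 with a median of 0.27. ZNF410, a zinc finger protein known for activating the CHD4 gene, had the smallest SD, with 49.9, 52.3 and 52.8 CPM in SM and 52.8, 56.3 and 55.5 CPM in STH sheep. ZNF784 followed with 1.32, 1.39 and 1.32 CPM in SM and 0.713, 0.711 and 0.662 CPM in STH sheep. It rests on few counts, so that its small SD says little. ZNF784 was also the highest in fold of the members higher at an unadjusted p under 0.05, with a log2 fold change of 0.95 (SE 0.38). ZNF384 came next, between 47.9 and 52.2 CPM in SM and between 41.4 and 46.3 CPM in STH sheep (log2 fold change 0.19, SE 0.13).

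The largest spread was in ZNF19, ZNF157 and ZNF214, of which ZNF157 was near the detection limit. ZNF19 stood at 6.31, 5.14 and 2.75 CPM in SM and 3.40, 1.71 and 0.199 CPM in STH sheep, so that STH XW8 alone was far below the others (log2 fold change 1.42, SE 0.74). ZNF157 stood at 0.331, 0.664 and 0.102 CPM in SM and at 0, 0.355 and 0 CPM in STH sheep, and no difference could be read at this depth. ZNF214 stood at 9.16, 4.94 and 1.63 CPM in SM and 8.79, 13.9 and 13.1 CPM in STH sheep, with SM 128 inside the STH range (log2 fold change -1.19, SE 0.51). Just inside the count rule were ZNF232, ZNF157 and ZNF891, with counts of 8, 8, 10, 12, 39 and 8, of 10, 30, 4, 0, 15 and 0, and of 14, 14, 6, 30, 38 and 10 in the sheep in the same order. Just outside were ZNF648, ZNF529 and ZNF541, with counts of 5, 20, 8, 10, 9 and 6, of 6, 5, 2, 10, 36 and 8, and of 3, 6, 4, 8, 12 and 3. Of the 7 rows outside, 3 were at 0 in every sheep (ZNF285, ZNF671 and ZNF597), and 205 of the 211 members reached 10 counts in all 6 sheep. No member entered through 1 breed alone.

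The members were of low level and long. Their mean RPKM, the level per kilobase of exon that the authors computed, had a median of 2.21 and ran from 0.029 to 69.6, beside a median of 4.35 over all genes tested. Their exons summed to a median of 4172 bases, beside 3068.5 for all genes, although the genes themselves spanned a median of 16141 bases, beside 22714. The highest levels per length were those of ZNF664 at 69.6 RPKM, ZNF706 at 23.6, ZNF768 at 17.4, ZNF185 at 16.7 and ZNF326 at 15.1 RPKM. ZNF664 was even across the sheep, with 412, 386 and 408 CPM in SM and 462, 438 and 400 CPM in STH sheep (log2 fold change -0.11, SE 0.14, and 0.02 with the trend on exon length removed). The breeds overlapped in all 5 genes, and their log2 fold changes lay between -0.32 and 0.27.

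The breed difference of a member followed the length of its exons, as it did in all genes. The 41 members under 2500 bases showed a median log2 fold change of 0.12, beside 0.16 over all genes of that length. Of these 1 (2.44%, beside 5.61% of all genes of that length) was lower and 4 (9.76%, beside 10.5%) were higher at an unadjusted p under 0.05. The 41 members of 2500 to 3500 bases had a median of -0.07, beside 0.03, with 3 lower (7.32%, beside 9.24%) and 3 higher (7.32%, beside 7.64%). The 52 members of 3500 to 5000 bases had a median of -0.19, beside -0.06, with 9 lower (17.3%, beside 13.2%) and 2 higher (3.85%, beside 4.81%). In the 77 members over 5000 bases the median was -0.23, beside -0.17, and 19 were lower (24.7%, beside 18.1% of all genes of that length) and 1 higher (1.3%, beside 3.57%). The medians of the members lay below those of all genes in each class, and both went down with length. The 32 lower members had a median exon length of 5480.5 bases, and the 10 higher members of 2638 bases.

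Length also moved with the single sheep. The median difference of SM 128 over SM 30126 was -0.08 on the log2 scale in the members under 2500 bases and 0.61 in those over 5000 bases, beside -0.27 and 0.35 over all genes of those lengths. With a smooth trend on exon length removed in each sheep, the members lower at an unadjusted p under 0.05 numbered 29 (background 9.32%) and those higher 25 (background 10.4%), in place of 32 and 10, and their median log2 fold change was -0.004, beside 0.08 for all genes. Members with every SM sheep above every STH sheep then numbered 35 (background 14.6%) in place of 23. Removing the trend shifted the median of all genes by 0.06, and 106 members were then below 0 in place of 121. Of the 32 lower members, 32 stayed below 0 and 27 stayed at the unadjusted threshold, with a median of -0.83.

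**Figure D3:**
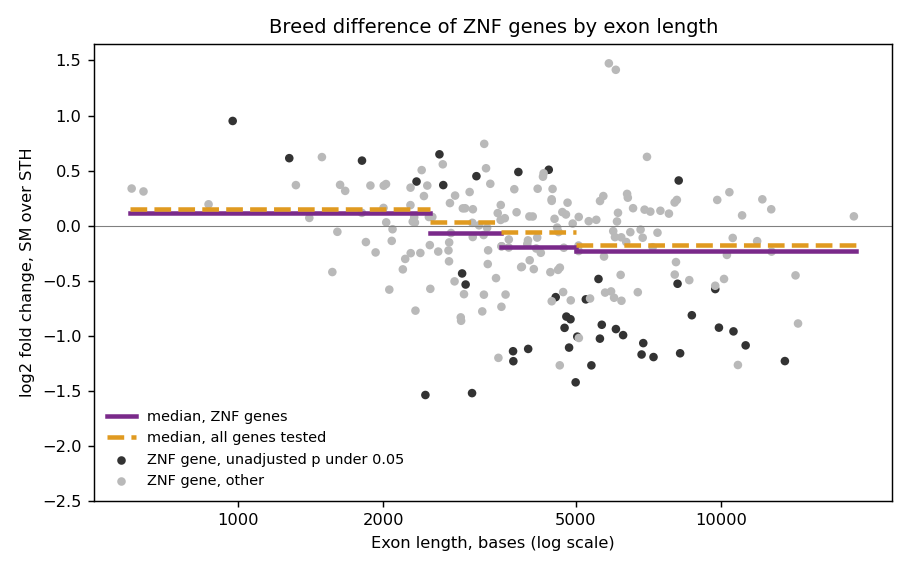
log2 fold change of each ZNF gene, SM over STH (y axis), against its exon length in bases on a log scale (x axis), with dark points for an unadjusted p under 0.05 and horizontal lines at the median of each length class. The medians go from 0.12 to -0.23 in the ZNF genes and from 0.16 to -0.17 in all genes tested, and most dark points below 0 lie beyond 3500 bases.

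Chromosome 14 held 57 of the 211 members, more than any other, and ZNF genes of mammals are known to lie in clusters. With genes joined when neighbouring members lay within 500 kb, and at least 5 members asked for, 50 members fell into 7 clusters, 31 of the 57 on chromosome 14 among them. The clusters were formed after the fold changes had been seen and received no test. In the cluster at chr14:45842925-46569671 of Oar_v4.0 all 11 members were lower in SM skin in the estimate, with log2 fold changes from -1.23 to -0.58 and a median of -0.93. An unadjusted p under 0.05 was reached by 7 of them, beside 10.8% of all genes lower at that threshold. In order along the chromosome the 11 were ZNF565, ZNF146, ZNF567, ZNF461, ZNF382, ZNF260, ZNF568, ZNF829, ZNF793, ZNF527 and ZNF420. ZNF260, which has been described in the heart, stood at 17.0, 6.18 and 6.52 CPM in SM and 17.5, 32.7 and 19.1 CPM in STH sheep (log2 fold change -1.23, SE 0.42). ZNF146, a protein made almost wholly of zinc fingers, stood at 76.0, 38.8 and 27.0 CPM in SM and 75.2, 108 and 86.0 CPM in STH sheep (log2 fold change -0.93, SE 0.34). In both genes SM 128 was near the level of STH XW3, and the other SM sheep were below every STH sheep.

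ZNF420, which has been linked to restraint of p53, stood at 5.02, 3.08 and 1.5 CPM in SM and 5.71, 8.39 and 6.69 CPM in STH sheep (log2 fold change -1.12, SE 0.41). ZNF461 stood at 3.44, 3.37 and 1.43 CPM in SM and 3.34, 8.22 and 6.55 CPM in STH sheep (log2 fold change -1.14, SE 0.43). The least of the 11 differences was that of ZNF565, at 6.05, 3.54 and 1.35 CPM in SM and 4.96, 6.56 and 4.77 CPM in STH sheep (log2 fold change -0.58, SE 0.47), where SM 128 lay inside the STH range. The breeds did not overlap in 5 of the 11, with STH above, beside 13.3% of all genes. All 11 stayed below 0 under each of the 17 alternatives run on them, with medians from -1.39 without SM 128, where 5 were called, to -0.60 with the intronic share as covariate. The number at an unadjusted p under 0.05, 7 of the 11 with all sheep, was 11 without SM 128, 4 without SM 30034, 3 without SM 30126 and 2 without STH XW5. The 7 other genes tested within the cluster, which carry no ZNF symbol, showed a median log2 fold change of -0.79, and 6 of them were below 0. The spans of ZNF565 and ZNF146 overlap, and reads in the overlap cannot be told apart without strand. The members of a cluster can share near-identical finger sequences, and the mapping statistics of the study place fragments with several matches among the counted ones, while how they were divided among genes is not given in the sources used here. Outside this cluster the other 200 members showed a median log2 fold change of -0.08. Of them, 25 were lower at an unadjusted p under 0.05, beside 10.8% of all genes.

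A cluster of 8 members on chromosome 24 (chr24:26587904-27176231) lay on the other side. ZNF48, ZNF771, ZNF768, ZNF688, ZNF689, ZNF629, ZNF668 and ZNF646 all had a log2 fold change above 0, with a median of 0.28 and a range from 0.20 to 0.61, and 1 of them, ZNF771, had an unadjusted p under 0.05. ZNF768 stood at 70.7, 63.8 and 97.2 CPM in SM and 59.5, 59.5 and 72.8 CPM in STH sheep (log2 fold change 0.27, SE 0.19), so that SM 30126 alone was apart. The 8 genes stayed above 0 under each of the same 17 alternatives. The 20 other genes tested within this cluster, which carry no ZNF symbol, showed a median log2 fold change of 0.21. Of these 20, 4 were below 0. The 5 remaining clusters had medians between -0.24 and 0.15. By chromosome the 20 members on chromosome 24 had a median of 0.20 with 6 below 0, the 57 on chromosome 14 of -0.24 with 35 below 0, and the 9 on the X chromosome of -0.69 with 6 below 0.

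**Figure D4:**
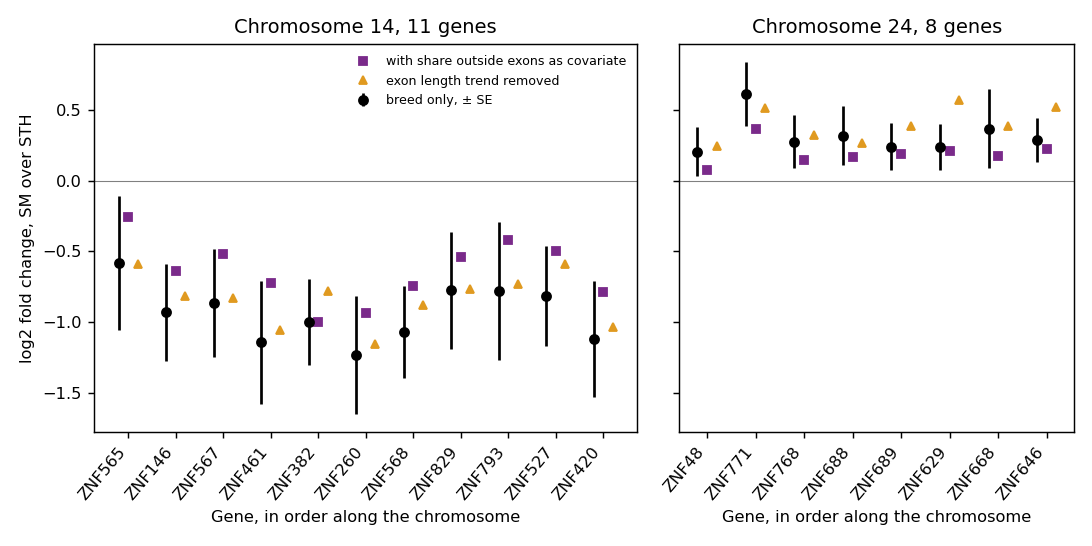
log2 fold change, SM over STH (y axis), of the ZNF genes of a chromosome 14 cluster (left) and a chromosome 24 cluster (right) in order along the chromosome (x axis), from the fit with breed only (circles, bars ± SE), with the share outside exons as covariate (squares) and with the exon length trend removed (triangles). All 11 genes on the left lie below 0 and all 8 on the right above 0 in each of these fits.

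Members known from the cell types of skin differed in the sign of their estimates. ZNF750, the keratinocyte differentiation factor, stood at 41.1, 42.1 and 85.0 CPM in SM and 48.8, 41.4 and 43.5 CPM in STH sheep, so that its log2 fold change of 0.33 (SE 0.27) came from SM 30126 alone, and it was -0.09 without that sheep. ZNF185, an actin-binding LIM protein of the keratinocyte, stood at 94.3, 104 and 135 CPM in SM and 111, 106 and 102 CPM in STH sheep (log2 fold change 0.06, SE 0.16, and -0.09 without SM 30126). Keratinocyte markers themselves summed to between 10289 and 12027 CPM in SM and between 11874 and 17878 CPM in STH sheep. In bulk skin fewer cells of a type and less RNA per cell cannot be told apart.

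Of 4 members known from mesenchymal and fat cells, ZNF423, ZNF521 and ZNF516 were above 0 and ZNF638 below. ZNF423, a factor of preadipocyte commitment, stood at 19.0, 18.3 and 21.9 CPM in SM and 15, 16.2 and 15.7 CPM in STH sheep, with no overlap (log2 fold change 0.34, SE 0.15, adjusted p = 0.285 by edgeR's quasi-likelihood test). ZNF521, an opponent of fat cell commitment, ranged from 12.8 to 16.4 CPM in SM and from 9.998 to 13.4 CPM in STH sheep (log2 fold change 0.30, SE 0.19), and ZNF516, a factor of brown fat, had a log2 fold change of 0.12 (SE 0.21). ZNF638, an RNA- and DNA-binding protein that promotes adipocyte differentiation in culture, stood at 166, 75.2 and 51.0 CPM in SM and 167, 293 and 192 CPM in STH sheep. SM 128 was level with STH XW3 there, and the other SM sheep were far below both, which gave a log2 fold change of -1.16 (SE 0.41, adjusted p = 0.252 by edgeR's quasi-likelihood test). The 5 adipocyte markers summed to between 30.9 and 66.7 CPM in SM and between 140 and 177 CPM in STH sheep, without overlap. Such a sum can rest mostly on 1 marker, and the study lists FABP4, which is among the 5, as higher in STH skin. Within SM sheep SM 128 had the lowest sum and the highest ZNF638. Smooth muscle markers summed to between 1039 and 1248 CPM in SM and between 1653 and 2111 CPM in STH sheep, fibroblast, skeletal muscle, endothelial and leukocyte markers overlapped, none of the markers in the files was at 0, and their part in the ZNF values was not tested.

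The 7 members that act on RNA, the ribosome or the mitotic spindle showed a median log2 fold change of 0.05, and none had an unadjusted p under 0.05. ZNF598, an E3 ligase that marks collided ribosomes, ranged from 27.1 to 28.6 CPM in SM and from 23.4 to 29.1 CPM in STH sheep. ZNF622 and ZNF593, the vertebrate forms of yeast ribosome assembly factors, had log2 fold changes of 0.37 (SE 0.19) and 0.34 (SE 0.21). ZNF207, which brings BUB3 to kinetochores and also acts in splicing, stood at 246, 201 and 185 CPM in SM and 250, 259 and 236 CPM in STH sheep (log2 fold change -0.24, SE 0.15). ZNF326, a subunit of a complex that links transcription to splicing, was at 65.6, 52.4 and 41.2 CPM in SM and 61.6, 72.4 and 65.2 CPM in STH sheep (log2 fold change -0.32, SE 0.18). In ZNF207, ZNF326 and ZNF830 the SM sheep ran in the order of the share outside exons. In ZNF622 (27.7, 32.4 and 41.2 CPM in SM 128, 30034 and 30126) and ZNF593 (7.9, 8.3 and 11.5 CPM) they ran in the opposite order. ZNF346 and ZNF598 followed neither order.

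Of 18 members with a known role in chromatin or transcription, 4 (22.2%, beside 10.8% of all genes) were lower at an unadjusted p under 0.05 and none higher (beside 7.21%), and the median log2 fold change was -0.05. The list was chosen with earlier results of these data known. Its median was 0.10 with the exon length trend removed and -0.015 with the share outside exons as covariate. ZNF143, a promoter and insulator factor, stood at 35.3, 31.6 and 23.9 CPM in SM and 38.5, 54.3 and 38.8 CPM in STH sheep without overlap (log2 fold change -0.54, SE 0.20). ZNF644, a partner of the histone methyltransferases EHMT1 and EHMT2, stood at 48.9, 22.6 and 13.3 CPM in SM and 56.8, 87.6 and 54.2 CPM in STH sheep (log2 fold change -1.23, SE 0.42). ZNF711, an X-linked partner of the demethylase PHF8, stood at 22.7, 9.74 and 4.33 CPM in SM and 18.4, 33.0 and 31.1 CPM in STH sheep (log2 fold change -1.17, SE 0.51). ZNF292, a large zinc finger protein linked to growth restraint and to neurodevelopment, stood at 76.9, 40.9 and 22.5 CPM in SM and 68.7, 122 and 82.2 CPM in STH sheep (log2 fold change -0.96, SE 0.40). In ZNF711 and ZNF292 SM 128 lay above STH XW3, and in all 4 genes SM 30126 was the lowest sheep. ZNF24, a SCAN zinc finger protein, had a log2 fold change of -0.61 (SE 0.27), whereas ZNF687 and ZNF592, which form a complex with ZMYND8, had 0.25 (SE 0.14) and 0.27 (SE 0.15), ZNF335, a subunit of histone methyltransferase complexes, 0.12 (SE 0.14), and ZNF274, which brings SETDB1 to zinc finger gene clusters, 0.08 (SE 0.31).

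The partners of KRAB zinc finger proteins were described from a list of 30 corepressor and heterochromatin genes, of which 28 were in the files and all 28 entered the test. The median of their log2 fold changes was 0.01, 14 of the 28 were below 0, and 5 (17.9%, beside 10.8% of all genes) were lower and 3 (10.7%, beside 7.21%) higher at an unadjusted p under 0.05. TRIM28 stood at 192, 216 and 277 CPM in SM and 205, 152 and 160 CPM in STH sheep (log2 fold change 0.41, SE 0.19, adjusted p = 0.285 by edgeR's quasi-likelihood test). SETDB1 was even, between 44.4 and 46.9 CPM in SM and between 43.4 and 47.7 CPM in STH sheep (log2 fold change 0.02, SE 0.13). The lowest p on the list were those of ATRX, a chromatin remodeller, with a log2 fold change of -1.12 (SE 0.34) and, as the only list gene called by DESeq2, an adjusted p of 0.0367 there, and MPHOSPH8, a subunit of the HUSH silencing complex, with -0.54 (SE 0.17), and on the higher side those of UHRF1, a maintenance factor of DNA methylation, with 0.46 (SE 0.15), and DAXX, a histone chaperone, with 0.32 (SE 0.14).

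Other zinc finger families were counted in the same way, beside the 10.8% lower and 7.21% higher of all genes. The 15 tested ZNF genes whose number is followed by a letter showed a median log2 fold change of -0.24, 5 (33.3%) being lower and none higher at an unadjusted p under 0.05, among them ZNF280D at -1.15 (SE 0.33), which was also called by DESeq2 (adjusted p = 0.0287) and by the likelihood ratio test (adjusted p = 0.0413), and ZNF518A at -1.34 (SE 0.48). The 12 ZFP genes had a median of -0.59, with 3 (25%) lower and none higher, led by ZFP37 at -1.02 (SE 0.34) and ZFP69 at -0.86 (SE 0.29). The 40 ZBTB genes, which pair zinc fingers with a BTB domain, had a median of -0.09, with 3 (7.5%) lower and 1 (2.5%) higher. The 11 ZSCAN and ZKSCAN genes had a median of -0.13, with none past the threshold. The 16 KLF genes, which have 3 fingers at the end of the protein, had a median of -0.09, with 2 (12.5%) lower and 2 (12.5%) higher. With the length trend removed the ZBTB median was 0.10, the ZSCAN and ZKSCAN median 0.04 and the KLF median 0.04, whereas the ZFP median was -0.38 and that of the letter-bearing ZNF genes -0.10. With the share outside exons as covariate the ZSCAN and ZKSCAN median was 0.006, the KLF median 0.005 and the ZBTB median -0.03. The ZFP median was then -0.28 and that of the letter-bearing ZNF genes -0.14.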

How the data were processed

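Skin RNA of 3 SM and 3 STH sheep was sequenced as 1 library per sheep, and the labels name no batch. Reads were checked by the authors in FastQC and aligned in CLC Genomics Workbench 9.0.1 (RNA-seq plugin, default parameters) against the Oar_v4.0 sheep genome. The deposited total counts are whole numbers without normalization. The RPKM values deposited by the authors are scaled to exon length and to the counted fragments of the library. The TPM values and the score named CPM that the authors deposited were not used.

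Counted fragments and exon lengths were recovered from count, RPKM and the length of genes with 1 exon, with 99.999% of 91030 recovered lengths within 0.01 base of a whole number. The share outside exons is 100% less the total count over the counted fragments. The 15320 genes that reached 10 counts in 3 or more sheep were normalized by TMM. They were tested with breed as the only term by the quasi-likelihood test of edgeR 4.0.16 in R 4.3.3. Benjamini-Hochberg adjustment ran over all these genes, and a gene was called where the adjusted p was under 0.05 and the breeds differed by more than 1.5-fold. The study names edgeR and these thresholds but not which of its tests. The test was also run on counts simulated from the means and dispersions of these libraries. Those counts held no trend on exon length or on the share outside exons. Per-sheep values are TMM-normalized CPM, and deviations used log2 CPM with a prior count of 2. Replicates are separate animals. At these depths 3 counts were at most 0.099 CPM, a floor that covers counting error only.

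The members and gene lists were chosen with earlier results of these data known. The genes named were the 6 with the smallest unadjusted p in each direction, the 5 of highest mean RPKM, the 3 of largest and 3 of smallest SD, ZNF175, ZNF260 and ZNF638 as named in the study, examples from the role lists chosen after their values were seen, the genes at the count threshold, and genes of 2 clusters. From the partner and family lists, TRIM28, SETDB1 and those of smallest unadjusted p were named. Alternatives were RLE and upper quartile factors, other count filters, each sheep left out, the 2 covariates, the length trend (loess, span 0.5), DESeq2 1.42.0, the likelihood ratio test, limma-voom (limma 3.58.1), the newer quasi-dispersion estimate and letter-bearing symbols. Of the 211 members, 201 matched a RefSeq gene table of another build by identifier, 187 with the same symbol, and only names were taken from it. Features of the proteins were not analysed here.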

Additional observations from a re-analysis of the deposited data

How the results depend on the processing

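The number of members past both thresholds was 1 under DESeq2 and 1 under the likelihood ratio test (ZNF175 in both), and 0 under the other alternatives that kept all 6 sheep. With 1 sheep left out the number ran from 0 to 28, the count without SM 128. At an unadjusted p under 0.05, the lower members numbered from 6 to 62 and the higher from 2 to 15 with 1 sheep left out, and with the exon length trend removed the higher numbered 25. As a share of the members, the lower ones were below the share of all genes without SM 30034 and without STH XW5. With 1 sheep left out, members without overlap numbered from 29 to 85 with STH above, the 85 without SM 128, and from 30 to 38 with SM above. Over all genes the shares then ran from 14.8% to 25% with STH above and from 14.98% to 24.5% with SM above. They were higher than with all sheep because 2 sheep against 3 overlap less often. With the length trend removed 35 members had SM above. The median log2 fold change of the members ran from -0.16 to -0.05 with 1 sheep left out. Upper quartile factors shifted the median of all genes to 0.05. The covariate and other-tool fits gave no overlap count. Of 51 genes that the naming rule gives, 14 changed sign in at least 1 alternative, none with an absolute log2 fold change above 0.33 at first. Among those given values here, ZNF664 was 0.016 and ZNF207 was 0.081 with the length trend removed. With the intronic share or the share outside exons as covariate, ZNF185 was -0.11 and -0.099, ZNF750 -0.056 and -0.035, and ZNF274 -0.15 and -0.14. With 1 sheep left out, ZNF185 ran from -0.091 to 0.17, ZNF750 from -0.086 to 0.51 and ZNF274 from -0.18 to 0.20, each lowest without SM 30126, and ZNF598 from -0.014 to 0.14, lowest without STH XW3. The cause of these changes was not tested. No paired analysis was possible because the replicates are single animals with no number shared between breeds. The comparison of protein features could not be run without protein sequences. Members near the count threshold are limited by depth, at 3 counts to between 0.066 and 0.099 CPM.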
